A study of Mus musculus with 5 samples.

Results

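The genes described here encode the signalling pathways of TGF-beta and the bone morphogenetic proteins (BMPs). A list of 45 gene symbols was drawn up by function: 13 ligands, 10 receptors and co-receptors, 8 Smad proteins, 4 Id genes, 7 extracellular binding proteins, and 3 inhibitors of receptors or Smads. Probes were assigned to a gene where the RefSeq accession on the array belonged to it, and this assignment used no expression value. The list itself was chosen with earlier results of these data known. All 45 genes had a probe, 57 probes in all, out of 21149 named genes on the array. Of these, 43 were well above background on at least 2 arrays, in fact on all 5, and entered the test of 16891 genes. The remaining pair, Bmp5 and Bambi, is described by detection only.

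Total RNA was taken from glioma (3 arrays) and from normal brain (2 arrays) of mice at postnatal day 150. The gliomas belong to a model made by mosaic analysis with double markers (MADM), a breeding scheme in which rare recombination between chromosomes produces sparse, labelled mutant cells among normal ones. The labels name no mutated gene, promoter, strain or brain region for either group, and do not say whether the replicates were separate animals or pools, so the p-values measure only the spread between these samples. RNA was hybridised to 60K single-colour Agilent arrays, on which between 61.5% and 70.3% of spots were well above background. All 5 arrays were on the same slide, with the gliomas in a row and normal brain in a different row, so slide row and group cannot be told apart. All levels are log2 signals relative to the 75th percentile of the array, so a level can be compared between arrays for a gene but not between genes. Changes are glioma minus normal brain on the log2 scale, ± the standard error of the limma fit (n = 3 and n = 2), with p-values adjusted over all genes tested.

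In this pathway a secreted dimer of the TGF-beta superfamily brings together type I and type II receptor kinases, which phosphorylate receptor Smads. TGF-betas and activins act mainly through Smad2 and Smad3, and BMPs through Smad1, Smad5 and Smad9. These join Smad4 and enter the nucleus, where Id genes are among the best known targets of BMPs. Smad6 and Smad7 restrain the pathway chiefly at the receptors, and Ski and Skil in the nucleus. In the brain, BMP signals favour the formation of astrocytes over neurons and oligodendrocytes during development, and TGF-beta signals are known for their part in blood vessels, microglia and the growth of glioma.

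Of the 43 genes tested, 9 rose in glioma and 12 fell at an adjusted p under 0.05. These 21 calls are 48.8% of the genes tested, against 51.4% of all genes tested (23.6% higher and 27.8% lower), so the share called was near the background. The groups did not overlap in 31 of the 43 genes, or 72.1%, against 74.1% of all genes. A call with a change of at least 2-fold was made in 19 of the 43 genes, a larger share than the 35.6% of all genes (6017 of 16891). This difference in share was not tested, and the genes were listed with earlier results of these data known. The median change was -0.09, against -0.05 over all genes tested. The median size of a change regardless of sign was 0.97, against 0.74. In the unscaled values of the authors' deposited table, 12 of these genes were higher and 8 lower, and the split of all calls moved from 46.0% to 63.7% higher, with the median of all genes at 0.31 and of these genes at 0.27. Ligands, receptors, Smads, Id genes and extracellular binding proteins each held genes that rose and genes that fell, whereas of the inhibitors 1 fell and none rose.

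**Figure D1:**
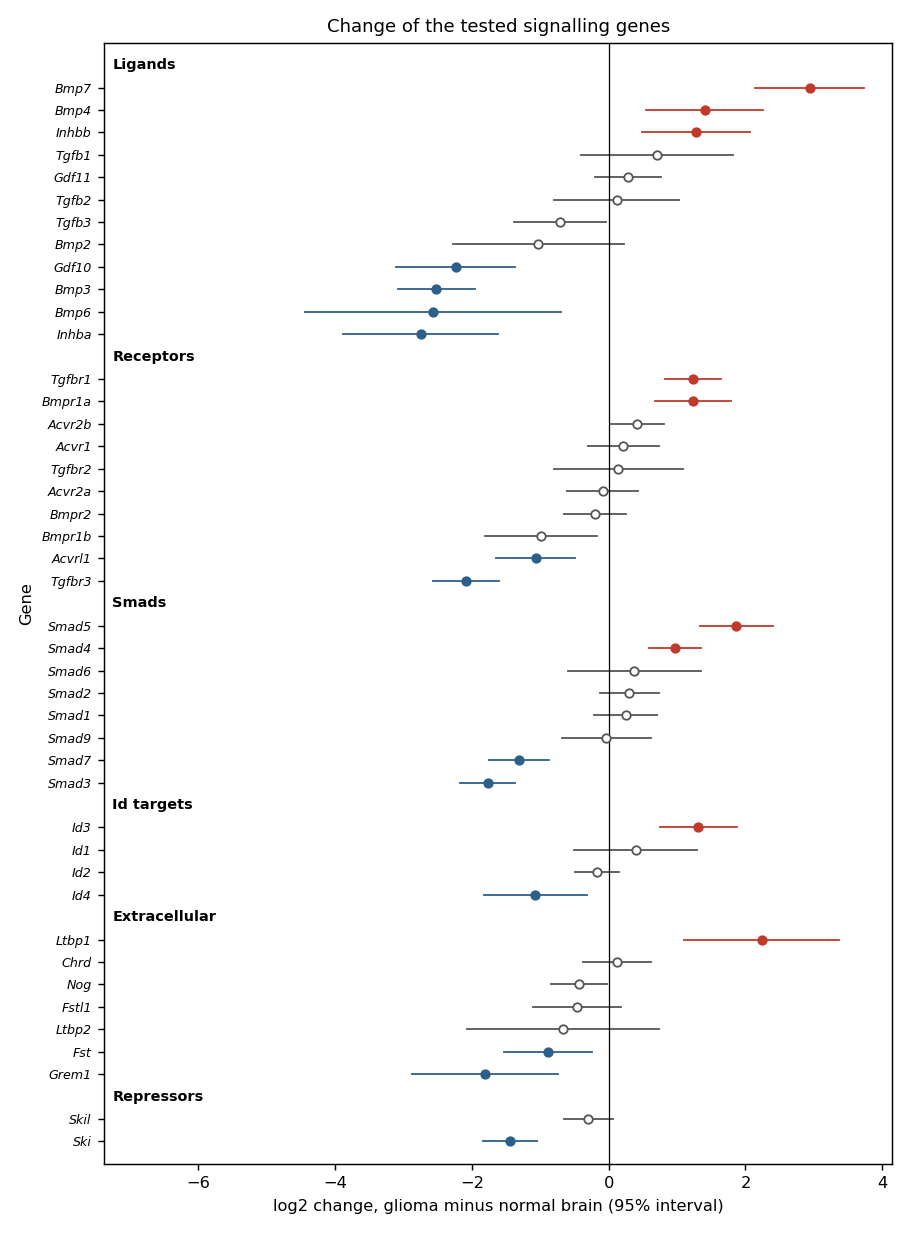
Log2 change (horizontal axis, glioma minus normal brain) of the 43 tested genes, grouped by role and sorted within each role; bars are 95% intervals of the limma fit. Filled red points are the 9 genes that rose, filled blue points the 12 that fell, and open points did not pass the test; every class except the inhibitors (headed Repressors) holds genes called in both directions.

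Among the ligands, Bmp7, Bmp4 and Inhbb rose, whereas Bmp3, Bmp6, Gdf10 and Inhba fell. Bmp7, a BMP active in the patterning of the developing brain, was at 3.97, 3.00 and 3.27 on glioma arrays 1 to 3 and at 0.49 and 0.45 on the normal brain arrays. All 3 gliomas were thus far above both normal samples, and the rise was 7.68-fold (2.94 ± 0.31, adjusted p = 0.00155), the largest among the 12 ligands of the main list that were tested. Bmp4, which directs neural stem cells towards astrocytes, was at 1.21, 2.07 and 1.07 in glioma against 0.08 and 0.02. Glioma 2 was the highest, the groups did not overlap, and the rise was 2.64-fold (1.40 ± 0.34, adjusted p = 0.0205). None of the 5 arrays detected a further Bmp4 probe above background. Inhbb encodes the beta-B subunit of activins and inhibins, and its levels were 1.22, 1.76 and 2.20 against 0.49 and 0.41. Each glioma was above each normal sample, with a 2.42-fold rise (1.28 ± 0.31, adjusted p = 0.0211).

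The ligand genes that fell did so by more than 4-fold. Bmp3, a BMP that opposes the bone-forming members of its family, was at -4.45, -5.08 and -4.68 in glioma and at -2.19 and -2.24 in normal brain. This fall of 5.74-fold (-2.52 ± 0.22, adjusted p = 0.000921) had little spread in either group. Inhba, the gene of the beta-A subunit of activins and induced by neuronal activity, was at -1.35, -1.41 and -2.65 against 0.80 and 1.08. Glioma 3 was the lowest and the groups were well apart, at 6.71-fold (-2.75 ± 0.44, adjusted p = 0.00575). Gdf10, also known as BMP3b, is expressed by astrocytes including the Bergmann glia of the cerebellum. It was at -2.96, -3.74 and -2.69 in glioma against -0.81 and -0.98, and fell 4.72-fold (-2.24 ± 0.34, adjusted p = 0.0047). Bmp6, best known for its control of iron balance through hepcidin, was at -3.65, -2.28 and -4.81 against -1.05 and -0.96. It was the most variable of these ligands among the gliomas, which differed by 2.53, and fell 5.94-fold (-2.57 ± 0.73, adjusted p = 0.0357).

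The 3 TGF-beta genes did not pass the test. Tgfb1, the form abundant in microglia and blood cells, was at -1.68, -1.13 and -2.57 in glioma and at -2.45 and -2.56 in normal brain. Gliomas 1 and 2 were above normal brain and glioma 3 was level with it, so that the change of 0.71 ± 0.44 (adjusted p = 0.225) became 1.10 ± 0.23 (adjusted p = 0.023) without glioma replicate 3. Tgfb2, made by neurons and glia, overlapped between the groups (1.95, 1.02 and 2.09 against 1.54 and 1.60) with a change of 0.12 and a 95% interval from -0.79 to 1.03. Its other detected probe gave -0.02. Tgfb3 was at 0.27, 0.40 and 1.02 against 1.30 and 1.25, without overlap, at -0.71 ± 0.26 (adjusted p = 0.0726). It also passed without glioma replicate 3 (-0.94 ± 0.12, adjusted p = 0.00662).

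Among the remaining ligands, Bmp2, a close relative of Bmp4, was at -3.32, -1.84 and -1.94 in glioma against -1.44 and -1.23, a change of -1.03 ± 0.49 (adjusted p = 0.137). Glioma 1 stood below the others, and without it the change was -0.55 ± 0.15 (adjusted p = 0.0442). Gdf11, which limits neurogenesis in several tissues, was at -3.15, -2.81 and -3.17 against -3.46 and -3.17, at 0.28 ± 0.19 (adjusted p = 0.269), with glioma 3 and normal brain 2 less than 0.01 apart. Bmp5 was well above background on normal brain array 1 alone, at -5.02, and was not tested. The calls of Bmp4, Bmp6 and Inhbb were lost when either normal brain array was left out, with adjusted p-values from 0.0926 to 0.133. Bmp6 was also lost without glioma replicate 1 (0.0886) and in the unscaled values (0.0668), and Inhbb without glioma replicate 2 (0.0618).

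**Figure D2:**
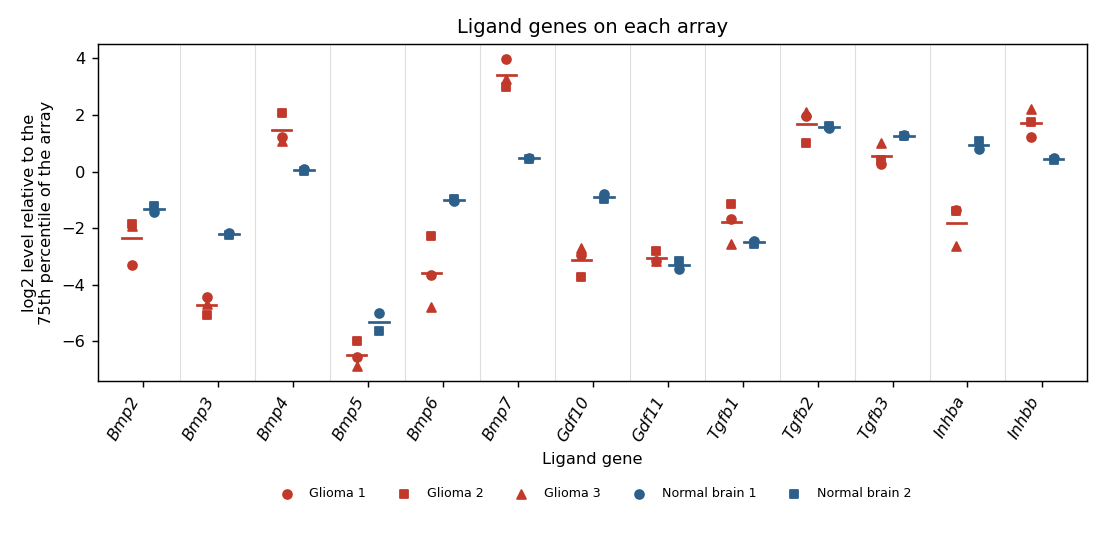
Log2 level relative to the 75th percentile of the array (vertical axis) of the 13 ligand genes on each of the 5 arrays; horizontal bars are group means. All gliomas lie above both normal brain arrays for Bmp7, Bmp4, Inhbb and Gdf11 and below them for Bmp3, Bmp6, Gdf10, Inhba, Bmp2 and Tgfb3; the Bmp5 values, all under -5, were well above background on 1 array only.

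At the receptors, the type I genes Bmpr1a and Tgfbr1 rose, the type I gene Acvrl1 and the co-receptor gene Tgfbr3 fell, and none of the 4 type II genes passed. Of the 10 receptor genes 40% were called, against 51.4% of all genes tested, and no difference between receptor types was tested. Bmpr1a, the main type I BMP receptor of neural progenitors, was at 2.39, 1.99 and 2.61 in glioma against 1.08 and 1.12. The groups were clearly apart, at 2.34-fold (1.23 ± 0.22, adjusted p = 0.00769). Tgfbr1, the type I receptor of TGF-beta itself, was at 0.97, 1.28 and 1.07 against -0.21 and -0.05, a rise of 2.35-fold (1.23 ± 0.16, adjusted p = 0.00287). Its other probe, dimmer on every array, gave 1.22. Tgfbr3, or betaglycan, presents TGF-beta2 to the signalling receptors and is the co-receptor of inhibin. It was at -2.34, -2.26 and -1.90 against 0.00 and -0.16, the largest fall among the 10 receptor genes of the main list at 4.25-fold (-2.09 ± 0.19, adjusted p = 0.000973).

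Acvrl1, also called ALK1, is a receptor of endothelial cells for BMP9 and BMP10. It was at -0.77, -0.14 and -0.45 in glioma and at 0.51 and 0.71 in normal brain, a fall of 2.09-fold (-1.07 ± 0.23, adjusted p = 0.0139). Eng, its endothelial co-receptor endoglin, fell by 0.91 ± 0.15 (adjusted p = 0.00652). Of 8 endothelial markers 7 fell, all 8 being detected in both groups, and their summed linear level, in units of the array's 75th percentile, was 11.5 to 15.1 in glioma against 23.5 to 26.3. Their part in the falls of Acvrl1 and Eng was not tested, and in bulk RNA fewer cells of a type and less RNA per cell cannot be told apart.

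Bmpr1b, a type I BMP receptor found in differentiating neural cells, was at -1.26, -0.93 and -1.90 against -0.53 and -0.22. It did not overlap between the groups and lay just outside the threshold (-0.99 ± 0.32, adjusted p = 0.0509). Its other probe was lower in every glioma as well, at -2.08, -2.28 and -2.73 against -1.30 and -1.43. Bmpr1b passed under 7 of 13 alternatives, of which the replicate block and the fit without glioma replicate 3 rest on the same change (-0.72). The type I gene Acvr1 changed by 0.22 ± 0.20 (adjusted p = 0.414). Among the type II receptors, Acvr2b, a receptor of activins, was at 3.01 ± 0.10 (SD, n = 3) against 2.59 ± 0.17 (SD, n = 2), without overlap, at 0.42 ± 0.15 (adjusted p = 0.0718), and passed under 4 alternatives. Bmpr2, Acvr2a and Tgfbr2 overlapped between the groups, with changes of -0.20, -0.09 and 0.14 and 95% intervals from -0.66 to 0.25, from -0.60 to 0.42 and from -0.79 to 1.08. The intervals for Bmpr2 and Acvr2a leave out a change of 2-fold in either direction, and that for Tgfbr2, raised in glioma 2 (1.86 against 0.90 and 0.77 in the other gliomas), does not leave out a 2-fold rise. The calls of Bmpr1a and Acvrl1 were lost without either normal brain array, at adjusted p-values from 0.0554 to 0.1, and Acvrl1 was not called in the unscaled values (0.0923).

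**Figure D3:**
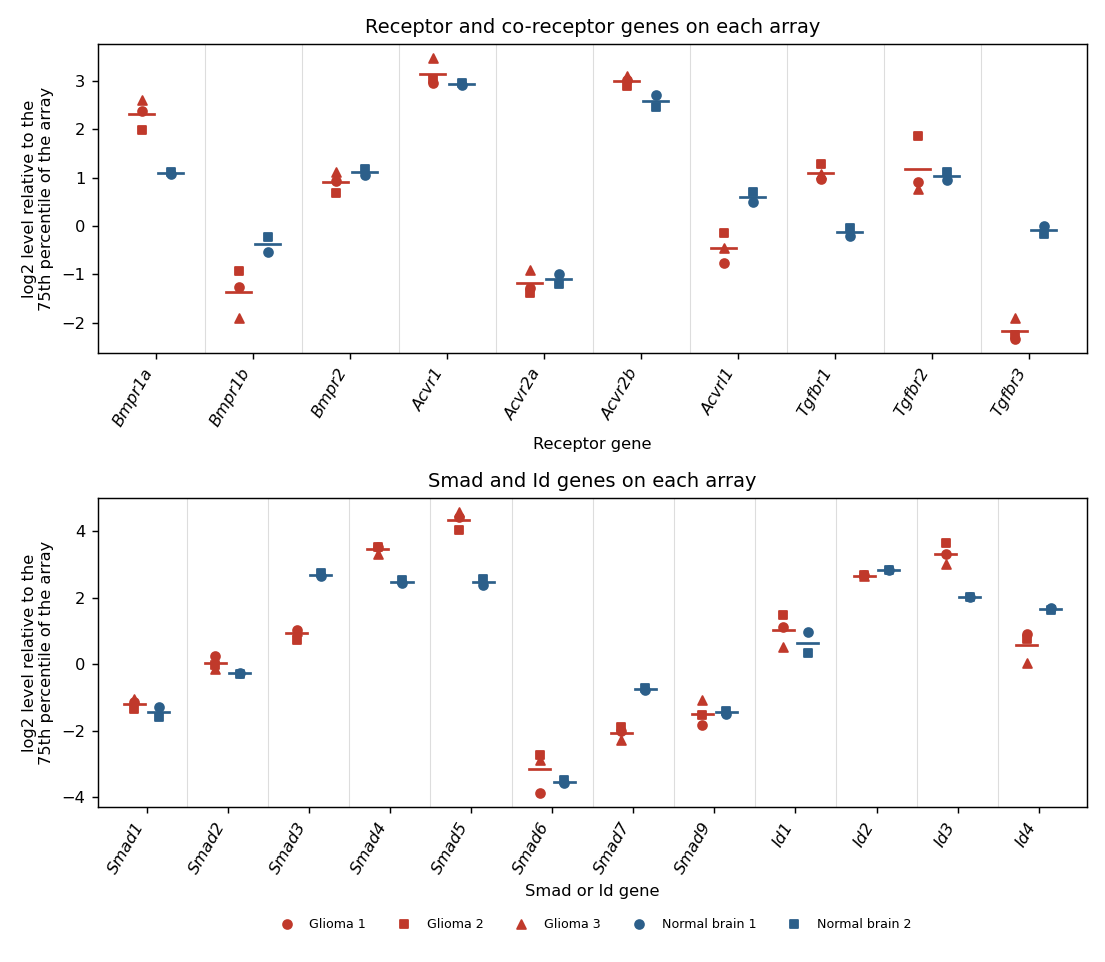
Log2 level relative to the 75th percentile of the array (vertical axis) on each of the 5 arrays, for the 10 receptor genes in the upper panel and the 8 Smad and 4 Id genes in the lower panel; horizontal bars are group means. The gliomas lie above normal brain for Bmpr1a, Tgfbr1, Smad4, Smad5 and Id3 and below it for Tgfbr3, Acvrl1, Smad3, Smad7 and Id4. They also lie above it for Acvr2b and Smad2 and below it for Bmpr1b and Id2, which did not pass the test.

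Within the Smads, a BMP Smad and the shared Smad rose while a TGF-beta Smad and an inhibitory Smad fell. Smad5, one of the receptor Smads of BMPs, was at 4.43, 4.04 and 4.58 in glioma and at 2.40 and 2.58 in normal brain. This 3.64-fold rise (1.86 ± 0.21, adjusted p = 0.00182) was the largest of the family, and a dimmer probe gave 2.07. Smad4, the partner of all receptor Smads, was at 3.55, 3.53 and 3.31 against 2.45 and 2.54. Its rise of 1.96-fold (0.97 ± 0.15, adjusted p = 0.0047) was matched by the other probe at 0.98. Smad3, a receptor Smad of TGF-beta and activin, was at 1.04, 0.75 and 1.02 against 2.66 and 2.75. Every glioma was lower by more than 1.5, a fall of 3.41-fold (-1.77 ± 0.16, adjusted p = 0.000957). Its other probe was well above background on both normal brain arrays and on no glioma array. Smad7, the inhibitory Smad that TGF-beta induces against its own receptor, was at -2.02, -1.87 and -2.27 against -0.78 and -0.71, and fell 2.48-fold (-1.31 ± 0.17, adjusted p = 0.00289).

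The related Smads did not pass. Smad1 and Smad9, the other BMP Smads, overlapped between the groups. Smad1 was at -1.13, -1.36 and -1.05 against -1.27 and -1.59 (0.25 ± 0.18, adjusted p = 0.299), and Smad9 had a difference of -0.04 ± 0.25 (adjusted p = 0.917). Smad2, the other Smad of TGF-beta, was at 0.25, -0.03 and -0.13 against -0.25 and -0.29, without overlap, at 0.30 ± 0.17 (adjusted p = 0.189). Smad6, the inhibitory Smad of the BMP branch, was at -3.88, -2.72 and -2.88 against -3.58 and -3.49. Glioma 1 was below normal brain and gliomas 2 and 3 above it, and without glioma replicate 1 the gene passed as higher (0.73 ± 0.14, adjusted p = 0.0192). In the unscaled values Smad1 (0.60) and Smad2 (0.66) passed as higher. The call of Smad4 was lost without normal brain replicate 1 (adjusted p = 0.0591).

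The Id genes encode helix-loop-helix proteins without a DNA-binding region, which hold differentiation factors inactive. Their responses were split: Id3 rose, Id4 fell, and Id1 and Id2 did not pass. Stretches before the transcription starts of the 3 of them in RefSeq's promoter table (GRCm38.p6) are shown, since Id3 and Id4 moved in opposite directions. Each holds the 250 bases upstream of the start, read 5′ to 3′ on the gene's strand, with matches to 2 motifs in capitals. These motifs are GGCGCC, a GC-rich element bound by BMP Smads, and CAGAC, the core Smad box, which reads GTCTG on the opposite strand. The windows are chr12:25096093-25096342 on the minus strand for Id2, chr4:136143572-136143821 on the plus strand for Id3 and chr13:48260866-48261115 on the plus strand for Id4.
Id2: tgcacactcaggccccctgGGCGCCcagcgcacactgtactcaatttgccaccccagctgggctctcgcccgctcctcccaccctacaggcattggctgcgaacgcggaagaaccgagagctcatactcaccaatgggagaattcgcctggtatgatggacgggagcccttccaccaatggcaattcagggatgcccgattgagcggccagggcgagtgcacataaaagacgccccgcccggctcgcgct
Id3: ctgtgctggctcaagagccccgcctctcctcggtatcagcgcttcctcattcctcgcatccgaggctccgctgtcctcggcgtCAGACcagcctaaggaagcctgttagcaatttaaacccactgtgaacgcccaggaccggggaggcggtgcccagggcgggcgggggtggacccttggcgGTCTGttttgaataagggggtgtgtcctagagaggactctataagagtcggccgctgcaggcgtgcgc
Id4: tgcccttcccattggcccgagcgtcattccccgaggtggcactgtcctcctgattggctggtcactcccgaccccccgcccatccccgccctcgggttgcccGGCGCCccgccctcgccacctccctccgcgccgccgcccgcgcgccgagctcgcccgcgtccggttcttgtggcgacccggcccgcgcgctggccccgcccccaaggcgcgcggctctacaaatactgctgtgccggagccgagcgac
The Id3 window held CAGAC once on each strand, 2 matches, and no GGCGCC. The Id2 and Id4 windows held 1 GGCGCC each and no CAGAC. Of all 32851 windows of this length in the table, 9.59% held GGCGCC and 42.2% held CAGAC on either strand. In the windows shown no matches overlap. Of the 45 pathway genes, 31 had a window in the table, 37 windows in all, of which 10 held GGCGCC and 16 held CAGAC. Some genes had 2 or 3 windows. These shares were not tested against those of all windows, and GC content was not taken into account. A match is a description of the letters and not evidence of a bound site.

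Id3 was at 3.33, 3.65 and 3.01 in glioma and at 2.01 and 2.03 in normal brain, which were nearly equal. All gliomas were higher, by 2.48-fold (1.31 ± 0.22, adjusted p = 0.00663). Id4, a member expressed in neural stem cells and astrocytes, was at 0.93, 0.78 and 0.06 against 1.69 and 1.63. Glioma 3 was the lowest, and the fall was 2.10-fold (-1.07 ± 0.29, adjusted p = 0.0317). Id1, a classical BMP target, was at 1.14, 1.48 and 0.53 against 0.97 and 0.34. The groups overlapped, with normal brain array 1 above glioma 3, and the change was 0.39 ± 0.35 (95% interval -0.51 to 1.29). Id2 was at 2.68, 2.70 and 2.65 against 2.84 on both normal brain arrays. The groups did not overlap, yet the change was only -0.17 ± 0.13 (adjusted p = 0.312), with an interval from -0.49 to 0.15. The call of Id3 was at an adjusted p of 0.0524 and 0.051 without normal brain replicates 1 and 2. That of Id4 was lost without either (0.145 and 0.126), without glioma replicate 2 (0.0586) and in the unscaled values (0.138).

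Of the extracellular binding proteins, Ltbp1 rose and Grem1 and Fst fell. Ltbp1 encodes the protein that ties latent TGF-beta to the matrix, and it was at 0.88, -0.24 and 1.16 in glioma against -1.59 and -1.68. Glioma 2 rose least but was still above normal brain, and the rise was 4.71-fold (2.23 ± 0.44, adjusted p = 0.0111). Grem1, a secreted antagonist of BMP2, BMP4 and BMP7, was at -5.02, -4.33 and -3.77 against -2.87 and -2.26. It fell 3.52-fold (-1.81 ± 0.42, adjusted p = 0.0182). Fst, or follistatin, which traps activins, was at -2.43, -1.80 and -2.42 against -1.43 and -1.22, a fall of 1.85-fold (-0.89 ± 0.25, adjusted p = 0.0339). The fall of Fst was lost in 5 of 13 alternatives: without glioma replicate 1 (adjusted p = 0.0779) or 3 (0.0738), without normal brain replicate 1 (0.113) or 2 (0.179), and in the unscaled values (0.222). That of Grem1 was lost without glioma replicate 2 (0.0535) and without normal brain replicate 2 (0.105), and the rise of Ltbp1 without either normal brain array (0.0578 and 0.0627).

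The BMP antagonists Nog and Chrd did not pass. Nog, or noggin, was at -2.48, -2.44 and -2.77 against -2.09 and -2.17, without overlap, at -0.44 ± 0.16 (adjusted p = 0.0749). Chrd, or chordin, overlapped between the groups (0.12 ± 0.20, adjusted p = 0.636). Fstl1, a follistatin-like glycoprotein, was at 1.39 ± 0.38 (SD, n = 3) against 1.85 ± 0.05 (SD, n = 2), without overlap, at -0.46 ± 0.25 (adjusted p = 0.182). Ltbp2, a matrix protein that does not bind latent TGF-beta, was at -5.06 in glioma 1 and at -3.63 and -3.32 in the others, against -3.23 and -3.45, so that the gliomas spread over 1.74.

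Among the inhibitors, Ski, a nuclear corepressor of Smads, was at -2.67, -2.38 and -2.65 in glioma against -1.15 and -1.10. The fall of 2.72-fold (-1.44 ± 0.16, adjusted p = 0.00163) was much larger than the spread in either group. Its relative Skil, also called SnoN, was at 1.11 ± 0.07 (SD, n = 3) against 1.41 ± 0.13 (SD, n = 2), without overlap, a change of -0.30 ± 0.14 (adjusted p = 0.135), with its other probe at -0.50. Bambi, a decoy receptor, was not detected well above background in any sample.

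The ratio of 2 genes within an array does not depend on the scaling between arrays. For 9 pairs of related genes, the log2 ratio is given relative to its mean in normal brain. The pairs were chosen with their changes known, so that their direction and the separation of the groups are a description. With 3 arrays against 2, the exact two-sided permutation test cannot give a p below 0.2, and each of the 9 pairs was at that value. The ratio of Bmp7 to Bmp6 was higher by 6.14, 3.79 and 6.60 in gliomas 1 to 3, while the normal brain arrays lay 0.06 to either side of their mean. For Inhbb over Inhba, which encode alternative activin subunits, it was higher by 3.07, 3.66 and 5.34. The ratio of the type I BMP receptors, Bmpr1a over Bmpr1b, was higher by 2.18, 1.45 and 3.03, and that of Tgfbr1 over Tgfbr2 by 1.23, 0.58 and 1.47. These ratios moved in the same direction in every glioma, with glioma 2 or glioma 1 the nearest to normal brain.

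Among the Smads and their targets, Smad5 over Smad1 was higher by 1.65, 1.48 and 1.72, although the normal brain arrays differed by 0.25 to either side of their mean. Smad3 over Smad2 was lower, at -2.19, -2.20 and -1.83, and Smad7 over Smad6 at -0.93, -1.94 and -2.18. Id3 over Id4 was higher by 2.04, 2.51 and 2.59, and Ski over Skil was lower, at -1.17, -0.99 and -1.28. In all 9 pairs the groups did not overlap, which is a description of unequal change and does not show that the steadier gene of a pair was unchanged.

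**Figure D4:**
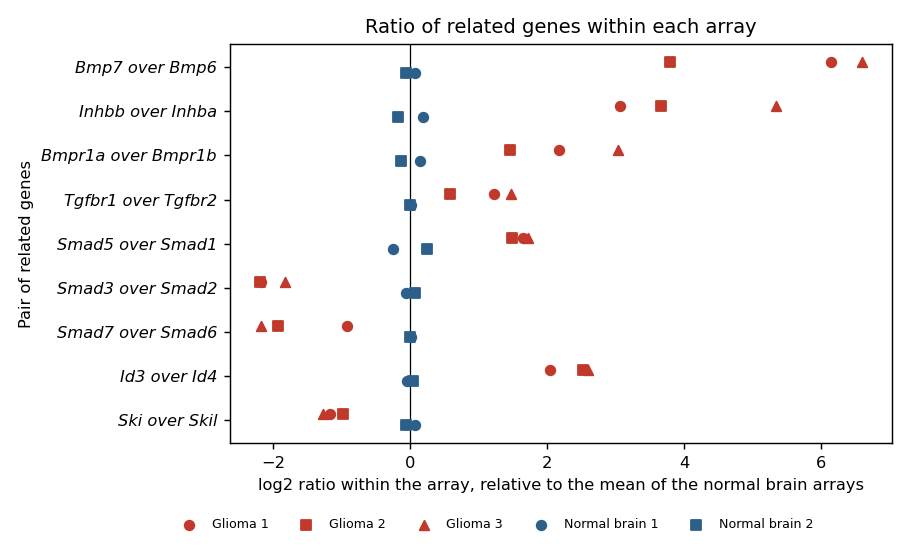
Log2 ratio of 2 related genes within each of the 5 arrays (horizontal axis), relative to the mean of the normal brain arrays, for 9 pairs of genes. The 3 gliomas lie on 1 side of the normal brain arrays in every pair, from -2.20 for Smad3 over Smad2 to 6.60 for Bmp7 over Bmp6.

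The gliomas differed among themselves more than the normal brain samples did. The median SD over the 43 genes was 0.32 among the gliomas and 0.07 between the normal brain arrays, against 0.26 and 0.07 over all genes tested. The glioma values spanned more than 1 log2 unit in 12 genes, among them Bmp6 (2.53), Ltbp2 (1.74), Bmp2 (1.48), Tgfb1 (1.44), Ltbp1 (1.40) and Inhba (1.30). In normal brain no gene spanned as much, and 2 genes, Id1 and Grem1, spanned more than 0.5. Glioma 2 was the highest of the gliomas in 18 genes, glioma 3 in 17 and glioma 1 in 8.

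A further 94 genes of the pathway were listed, of which 84 were tested. Of these, 17 rose and 23 fell, or 47.6% called, again near the 51.4% of all genes tested, and their median change was -0.11. In the authors' unscaled values 25 were higher and 14 lower. Of 16 further ligands 4 rose and 3 fell, or 43.8% called. Gdf15, a stress-induced cytokine of the family, was at 1.28, -0.59 and 1.28 in glioma and not well above background on either normal brain array, and was at least 63.5-fold higher. For such a bound the level in normal brain was taken as the dimmest signal that still counted as well above background on that array, unless the gene itself was brighter. Bmp8b, also undetected in normal brain, was at least 5.51-fold higher, and Gdf9, an oocyte growth factor, rose by 1.59 ± 0.26. Inha, the alpha subunit that makes inhibin from the activin subunits, fell by 1.68 ± 0.16, Gdf5 by 0.99 ± 0.26 and Nodal by 0.88 ± 0.14. In the unscaled values Gdf5 and Nodal did not pass (adjusted p = 0.0578 and 0.0524), nor without either normal brain array (0.104 and 0.152, and 0.0654 and 0.0558), and Gdf5 was also lost without glioma replicate 1 (0.0704) or 2 (0.0554) and with averaged probes (-0.67, adjusted p = 0.0609).

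Of 7 further receptors and co-receptors, 5 fell and none rose, where 27.8% of all genes tested fell and 23.6% rose; a count over 7 genes was not tested against that share. The type I receptor genes Acvr1c (ALK7) and Acvr1b (ALK4), which serve activins and nodal, fell by 2.91 ± 0.26 and 1.29 ± 0.20, and Amhr2, the receptor of anti-Müllerian hormone, by 1.70 ± 0.28. Acvr1c was at -1.69, -1.76 and -2.39 in glioma and at 0.89 and 1.03 in normal brain, the largest fall of a receptor here at 7.50-fold (adjusted p = 0.000936). The call of Acvr1b was lost without normal brain replicate 1 (adjusted p = 0.0526).

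Of 22 extracellular regulators 6 rose and 6 fell, or 54.5% called, near the 51.4% of all genes tested. The fibrillin genes Fbn2 and Fbn1, whose microfibrils hold latent TGF-beta and BMPs, rose by 4.16 ± 0.16 and 2.02 ± 0.21. Fbn2 was at 1.61, 1.82 and 1.87 against -2.52 and -2.26, a 17.8-fold rise with little spread (adjusted p = 0.000366). Chrdl1, which binds and blocks BMPs, rose by 1.89 ± 0.18. The BMP antagonist Sostdc1 fell by 3.25 ± 0.15 and Lrrc32, or GARP, which docks latent TGF-beta on cell surfaces, by 1.51 ± 0.16. Sostdc1 was at -2.15, -2.22 and -1.95 against 1.11 and 1.17 (adjusted p = 0.00037).

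Of 18 regulators of Smads 4 rose and 2 fell, or 33.3% called against 51.4% of all genes tested, and this difference in share was not tested. Tgif1, a corepressor of Smad2 and Smad3, rose 5.10-fold (2.35 ± 0.22, adjusted p = 0.00112) and the ubiquitin ligase gene Wwp2 by 0.95 ± 0.19. Foxh1, a Smad partner of early development, was undetected in normal brain and passed the test as higher (0.56 ± 0.17, adjusted p = 0.0449), but its change turned to -0.06 with normexp background correction, so no lower bound is given for it. The ubiquitin ligase gene Nedd4l fell by 2.24 ± 0.29 and Zfyve9, or SARA, which presents Smad2 and Smad3 to the receptor, by 0.81 ± 0.17. Zfyve9 was not called in the unscaled values (adjusted p = 0.113). Leaving out normal brain replicate 1 or 2 ended the calls of Zfyve9 (0.0762 and 0.116), Wwp2 (0.0815 and 0.0769) and Foxh1 (0.138 and 0.274). Foxh1 was lost as well without glioma replicate 1 (0.078) or 2 (0.0951), with quantile normalization (0.0642), without the filter on dim probes (0.0547) and with the intensity trend (0.159), and Zfyve9 with the replicate block (0.0507).

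Of 21 response genes 3 rose and 7 fell, or 47.6% called, near the 51.4% of all genes tested. Cdkn2b, the p15 cell cycle inhibitor that TGF-beta induces, was at 1.92, 1.30 and 2.95 against -3.27 and -2.71, a 33.1-fold rise (5.05 ± 0.52, adjusted p = 0.00138). Zeb1, a zinc finger repressor, rose by 1.77 ± 0.16. The homeobox genes Msx1 and Dlx5, both BMP targets in development, fell by 2.65 ± 0.17 and 1.71 ± 0.20, and Snai2, well above background on 2 of the 3 glioma arrays, by 1.66 ± 0.35. The call of Snai2 was lost without normal brain replicate 2 (adjusted p = 0.0856).

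**Figure D5:**
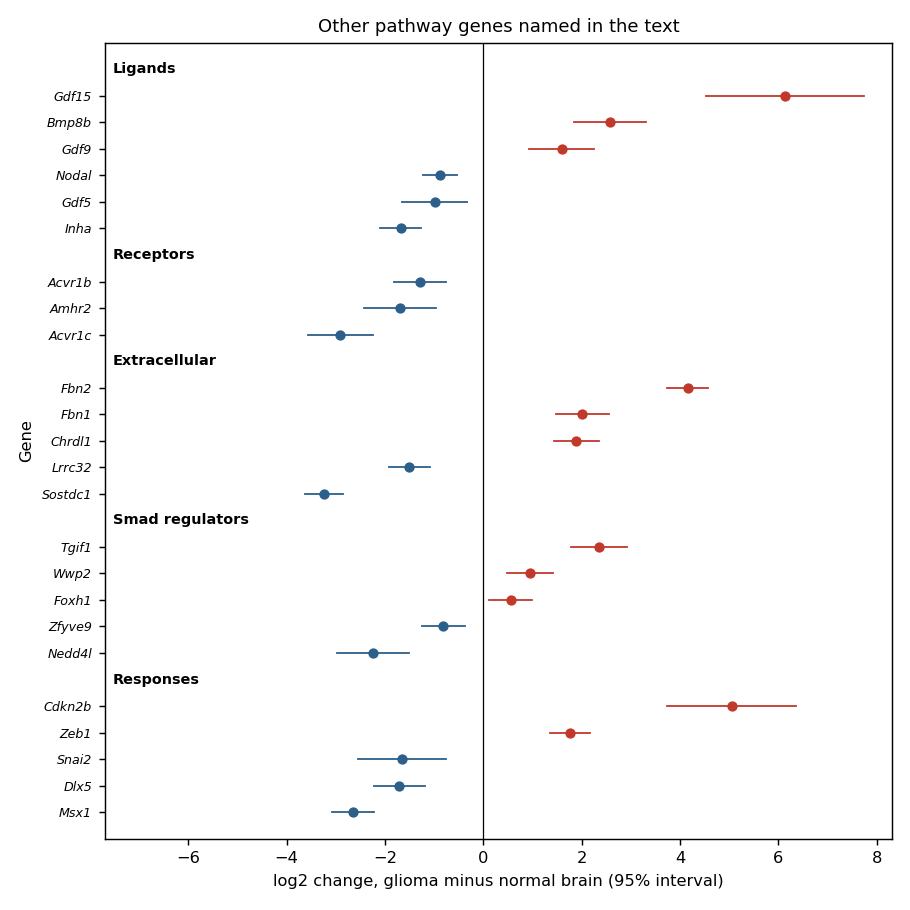
Log2 change (horizontal axis, glioma minus normal brain) with 95% intervals of the limma fit, by class. The genes are those of the further pathway list named in the text, except Eng. Red points rose and blue points fell. The points of Gdf15, Bmp8b and Foxh1 are fitted values for genes not well above background in normal brain; the text gives lower bounds of 63.5-fold for Gdf15 and 5.51-fold for Bmp8b, and the change of Foxh1 turned to -0.06 with normexp.

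Markers of several cell types moved with the groups. All 10 neuronal markers fell, with a summed linear level of 37.8 to 60.0 in glioma against 387 to 393 in normal brain. All 7 oligodendrocyte progenitor markers rose, from 46.0 to 46.7 in normal brain to 383 to 439 in glioma, and all 7 proliferation genes rose, with Cdk1 and Bub1 undetected in normal brain. All 8 choroid plexus markers fell (0.43 to 0.64 against 248 to 255), as did 7 of 9 meningeal fibroblast markers (2.23 to 3.75 against 11.6). Of 9 astrocyte markers 3 fell and 1 rose (167 to 292 against 312 to 326), and of 10 microglia and macrophage markers 5 rose and 1 fell (85.5 to 196 against 97.0 to 100). Of 8 oligodendrocyte markers 6 fell (51.4 to 332 against 319 to 345), with glioma 2 the highest of the gliomas. The sum of glioma 2 was mostly Mag, which was not called and stood there at 7.74, against 5.18 and 5.32 in normal brain. The other 7 oligodendrocyte markers were lower in every glioma than in normal brain. Aldoc, also not called, likewise made up most of each astrocyte sum, and Ttr most of the choroid plexus sum in normal brain. Itgam, the microglia and macrophage marker that fell, was the largest part of that sum in normal brain. It was at 5.44 and 5.48 there, against 2.55, 3.95 and 4.38 in glioma. The 5 microglia and macrophage markers that rose were higher in every glioma than in normal brain, and 4 were not called. Of 7 mural markers 6 fell and 1, Cspg4, also a progenitor marker, rose. The 4 red cell markers fell, and so did 4 of 5 ependymal markers. Apart from Cdk1 and Bub1, every marker was well above background on at least 1 array of each group. The part of these cell types in the changes of the ligands, receptors, Smads and Id genes was not tested.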

How the data were processed

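Per the file headers, the authors' scanner files hold the intensity of each spot after background subtraction and detrending in Agilent Feature Extraction 10.7.3.1, the version in the submitters' processing notes, with other 0 or 1 flags per spot. The authors' deposited table holds log2 values, checked to equal the log2 processed signal without scaling between arrays. Control spots were left out, repeated spots averaged, and 23 probes with outlier flags removed. The main values are log2 processed signal minus the 75th percentile of the array. Probes were named through RefSeq accessions (28026 of 55681), and the brightest probe stood for each gene. Of 11 pathway genes with several detected probes, 1 had a probe of opposite sign (Tgfb2).

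The test was limma (version 3.58.1, under R 4.3.3, lmFit, eBayes, Benjamini-Hochberg over 16891 genes, threshold 0.05). It was also run on simulated data in which both groups had the same variance. That run cannot show how the test behaves with the unequal spread of gliomas and normal brain. Python 3.11.15 with scipy 1.17.1 and matplotlib 3.10.9 made tables and figures. All arrays share a slide, so no batch term was fitted. The number of arrays limits the precision.

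The members, lists and pairs were chosen with earlier results of these data known. All 45 members are described, with values by array for those called, those without overlap between the groups and those whose call changed, except that Acvr2b, Fstl1 and Skil are given as means. Of the further list, up to 3 called genes per class and direction were named, of which 2 are not reported here; Eng was added after its values were seen. Alternatives covered scaling, background correction, the dim-probe filter, the choice of probe, the variance model, the replicate number as a block, and each array left out.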

Additional observations from a re-analysis of the deposited data

How the results depend on the processing

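The 21 called members kept their direction under all 13 alternatives, and 10 of them kept their call throughout; the others lost it as given in the report. All 21 kept the call under quantile normalization, normexp, both filters, averaged probes, the intensity trend and the replicate block, and 17 in the unscaled values. Under both filters and the intensity trend each change is that of the main fit, so its direction could not differ there. Calls rested on having both normal brain arrays: leaving out 1 array at a time gave 3 to 10 members higher and 7 to 13 lower, 11 to 18 and 11 to 26 further pathway genes, and 1973 to 4333 and 2626 to 4992 of all genes, the lowest counts all arising without a normal brain array. The median change of members lay between -0.23 and -0.0407 over these fits. It was 0.27 in the unscaled values, -0.17 without a filter, -0.16 with averaged probes and -0.23 with the replicate block, against -0.09. The further pathway genes lower in glioma numbered 14 in the unscaled values against 23. Foxh1 turned to -0.0576 with normexp. The replicate block called 10 members higher and 14 lower, with Tgfb1, Tgfb3 and Bmpr1b passing besides (adjusted p = 0.0342, 0.021 and 0.0328). As no normal brain array has replicate number 3, the block leaves glioma replicate 3 out of the estimated change. Its changes equal those without that array (Tgfb1 1.10, Tgfb3 -0.94 and Bmpr1b -0.72), so the block is not a separate check of them. The labels do not say whether equal replicate numbers pair the samples. Deviations from the group mean correlated at 0.01 for replicate 1 and 0.05 for replicate 2. With 2 normal brain arrays these deviations mirror each other, so the correlations cannot decide whether the samples were paired. The pair ratios kept their direction under every alternative, Smad3 over Smad2 ranging from -2.85 with averaged probes to -1.98. Their direction could not differ under both filters and the intensity trend, and in the unscaled values the scaling cancels within an array. Normexp was run on median spot signals, a choice made after seeing the data, because the files used here carry no mean signal. Dim genes, such as Bmp5 and Bambi, are limited by signal over background.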
